A study of Mus musculus with 2 samples.

Results

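Caspases are cysteine proteases that cut their substrates after aspartate. They are made as inactive precursors and become active by dimerisation or by cleavage, often by another caspase. Initiator caspases are recruited to large adaptor complexes, executioner caspases then cut the proteins whose loss dismantles the cell, and inflammatory caspases act in inflammasomes, where they mature cytokines of the IL-1 family and open gasdermin pores. In T cells these enzymes are known for the removal of activated clones after stimulation by Fas ligand or loss of cytokines, and caspase-8 also keeps activated T cells from dying by necroptosis. A transcript level says how much message for the precursor is present and nothing about the activity of the enzyme.

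The 6 caspase genes described here are Casp1, Casp2, Casp4, Casp6, Casp8 and Casp9, chosen by exact gene symbol, out of 20662 genes that the array names by 1 symbol. They are covered by 9 probe sets, 1 each for Casp1, Casp2, Casp4 and Casp8, 2 for Casp6 and 3 for Casp9. The RNA came from intraepithelial lymphocytes (IEL), which are T cells lodged within the lining epithelium, here that of the small intestine. Both populations came from RAG-knockout mice, strain C57BL/6, that had received naive CD4 T cells 8 weeks earlier, a transfer model of colitis. RAG-knockout hosts lack T and B cells but keep their myeloid, innate lymphoid and epithelial cells. The cells were sorted into CD4 IEL without CD8 alpha and CD4CD8aa IEL, which carry CD4 and CD8 alpha. The comparison asks how the transcripts of CD4 T cells in the gut epithelium differ with the presence of CD8 alpha.

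Each population was measured on 1 single-colour array, so there are no replicates, no error between animals and no test. How many animals were pooled for an RNA is not stated in the labels. Precision is limited by this number of arrays. Each signal below is a multiple of its array's median (82.5 raw units for CD4 IEL and 81.1 for CD4CD8aa IEL). Each difference is the log2 signal in CD4CD8aa IEL less that in CD4 IEL, so a positive value is higher in CD4CD8aa IEL. A probe set was called detected when its signal exceeded a floor of 0.4 times the array median on at least 1 array, and signals under the floor were raised to it. Cd8a, the marker used for the sort, gave 3.79 on the CD4 array against 291.4 on the CD4CD8aa array, whereas Cd4 gave 72.6 and 86.4, so both labels hold. The only spread these arrays hold is the one among a gene's own probe sets, called the same-gene spread here. The SD of their log2 differences was smaller at higher signal, being 0.81 below the array median, 0.67 up to 2 times, 0.55 up to 4 times, 0.45 up to 16 times, 0.41 up to 64 times and 0.35 above that. It mixes noise with true differences between transcripts of a gene and is no replicate error.

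The 6 caspase genes had similar signals in both populations. All 6 were detected on both arrays, and their log2 differences lay between -0.29 (Casp6) and 0.23 (Casp2), with a median of -0.09. The median over all 17438 detected genes was 0.06. Casp1, Casp4, Casp6 and Casp8 had the lower signal in CD4CD8aa IEL, and Casp2 and Casp9 the higher one. None of the 6 was 2-fold apart, against 13.3% of all detected genes (6.85% higher and 6.43% lower in CD4CD8aa IEL). None was 1.5-fold apart either, against 32.1% of all detected genes. With 6 genes, a count of 0 at 2-fold is close to that background and is no result about caspases as a family. Across the genes, the absolute log2 difference had a median of 0.19 for the caspases and of 0.37 for all detected genes, many of which had lower signals than these caspases.

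**Figure D1:**
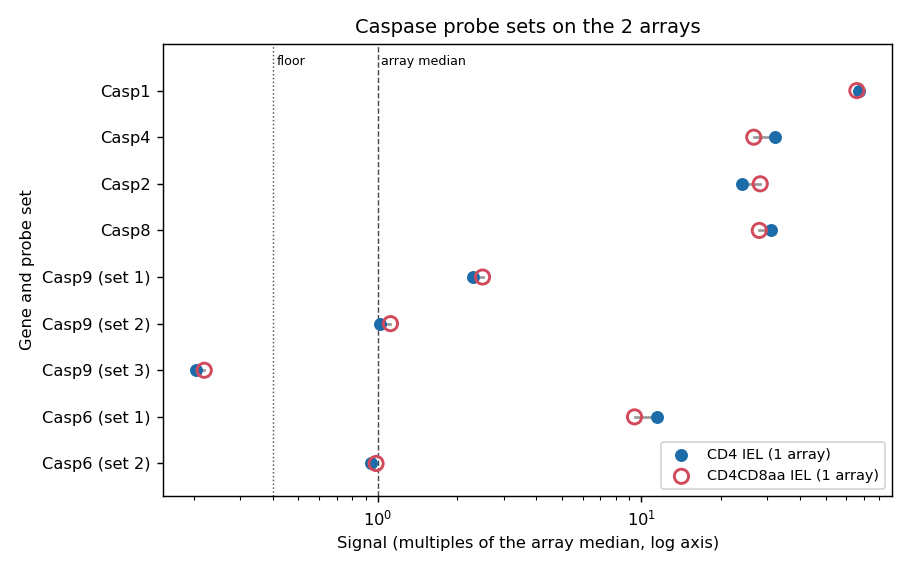
Signal of each caspase probe set in multiples of the array median (log axis), with filled points for CD4 IEL and open circles for CD4CD8aa IEL, 1 array each. Sets of a gene are numbered from the brightest, the dashed line is the array median and the dotted line the floor of 0.4. The paired points lie close together in every row, and the third set of Casp9 lies below the floor on both arrays.

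The inflammatory caspases come first. Casp1 encodes the protease that matures IL-1 beta and IL-18 and cleaves gasdermin D. Its raw signal was 5542.1 in CD4 IEL and 5332.6 in CD4CD8aa IEL, which is 67.2 and 65.8 times the array median. The log2 difference was -0.03, a change of -2.12% from the CD4 value, and 9.22% of the 1508 detected probe sets with a signal above 64 times the array median differed by less. Of the detected genes with such signals, 2.09% were 2-fold apart. Casp4, known in mice also as Casp11, encodes the caspase that senses cytosolic lipopolysaccharide and cleaves gasdermin D without an inflammasome adaptor. Its raw signal was 2647.1 in CD4 IEL and 2166.5 in CD4CD8aa IEL, or 32.1 and 26.7 times the array median. The log2 difference of -0.26 (1.201-fold lower in CD4CD8aa IEL) is 0.64 of the same-gene SD at that signal, and 53.3% of the 4007 detected probe sets of similar signal differed by less. Casp1, Casp4 and Casp12 follow one another among the protein-coding genes of the RefSeq annotation (GRCm38.p6, used for gene order only). Casp12, whose product belongs to the same group of caspases by sequence, had its better probe set near the array median, at 0.63 and 1.14 (log2 difference 0.85, same-gene SD 0.81), and its other one below the floor on both arrays. For Casp1 and Casp4, then, the signal was well above the array median in both populations and differed by less than the same-gene SD.

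Among the initiators, Casp8 encodes the caspase recruited by Fas and other death receptors through the adaptor FADD. Its raw signal was 2573.2 in CD4 IEL and 2273.9 in CD4CD8aa IEL, or 31.2 and 28.0 times the array median, a log2 difference of -0.15 (1.11-fold lower in CD4CD8aa IEL). Cflar, the neighbouring gene in the same annotation, encodes c-FLIP, the catalytically inactive relative of caspase-8 that limits its activation. It had signals of 12.2 and 10.2 and a log2 difference of -0.25, and its 4 probe sets gave between -0.30 and 0.11. Both neighbours therefore differed by less than the same-gene SD (0.41 and 0.45).

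Casp2 encodes an initiator that is activated in the PIDDosome, a complex that responds to DNA damage and surplus centrosomes. Its raw signal was 1988.1 in CD4 IEL and 2292.7 in CD4CD8aa IEL, or 24.1 and 28.3 times the array median. It was the caspase of the 6 with the largest difference towards CD4CD8aa IEL, 0.23 on the log2 scale (1.17-fold), which is 0.56 of the same-gene SD. Of the detected probe sets of similar signal, 47.9% differed by less.

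Casp9 encodes the initiator of the mitochondrial pathway, which cytochrome c and Apaf-1 activate in the apoptosome. Its brightest probe set had raw signals of 188.8 (CD4 IEL) and 202.6 (CD4CD8aa IEL), or 2.29 and 2.50 times the array median (log2 difference 0.13). The second had 1.02 and 1.12 (0.13), and the third 0.20 and 0.22, below the floor on both arrays and not counted. All 3 leaned the same way by a similar amount, with differences before flooring of 0.10 to 0.13, but probe sets of a gene on the same 2 arrays are not independent replicates, and the same-gene SD at these signals is 0.55 or more. Large differences are more common at such signals: 10.3% of all detected genes with a signal from 2 to 4 times the array median were 2-fold apart, compared with 17.1% from 1 to 2 times and 3.07% from 16 to 64 times.

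Casp6, the executioner caspase among the 6, encodes a protease known for cleaving nuclear lamin A. Its brighter probe set had raw signals of 948.2 (CD4 IEL) and 764.3 (CD4CD8aa IEL), or 11.5 and 9.42 times the array median. The log2 difference of -0.29 (1.22-fold lower in CD4CD8aa IEL) was the largest in size of the 6 genes and 0.63 of the same-gene SD. Of the detected genes with a signal from 4 to 16 times the array median, 4.9% were 2-fold apart. The second probe set, at 0.94 and 0.99, gave 0.06 in the other direction. Its signal was close to the array median, where the same-gene SD is 0.81 and 24.9% of detected genes were 2-fold apart, so the direction of Casp6 rests on 1 probe set.

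Over the 8 detected probe sets, 4 were higher and 4 lower in CD4CD8aa IEL, and none was 2-fold apart, against 14% of all detected probe sets (6.88% higher and 7.13% lower in CD4CD8aa IEL). None was 1.5-fold apart, against 33.9%. The difference of every one of the 8 was smaller than the same-gene SD at its signal, by a ratio of 0.08 to 0.64. The share of detected probe sets of similar signal that differed by less ran from 5.71% to 53.3%. In the authors' deposited table, which gives CD4 over CD4CD8aa and so has the opposite sign, the log2 folds of the 9 probe sets lay between -0.23 (Casp2) and 0.29 (Casp6).

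**Figure D2:**
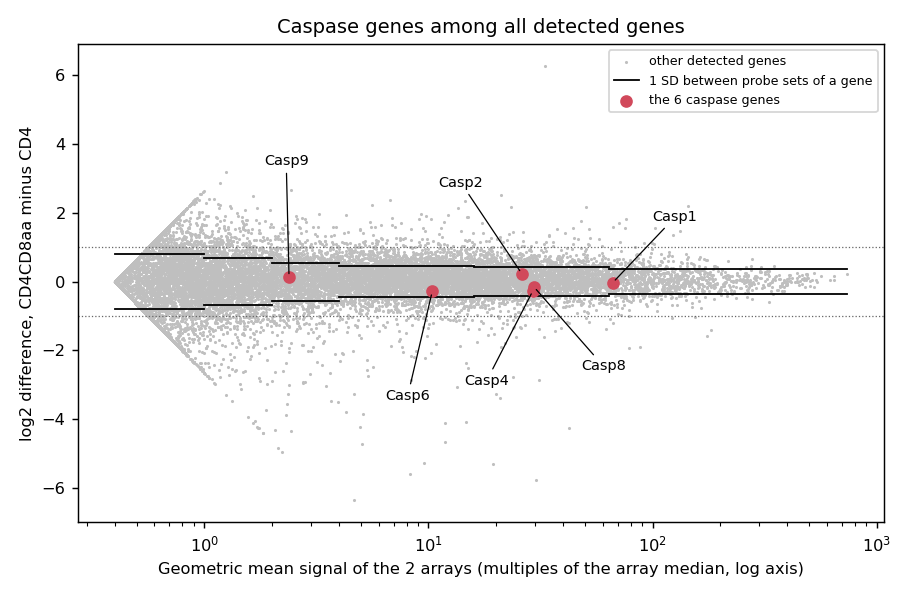
Log2 difference (CD4CD8aa minus CD4) of every detected gene against its geometric mean signal on the 2 arrays (log axis), with the 6 caspase genes in red. Black steps mark 1 SD between probe sets of a gene and dotted lines 2-fold. The 6 caspase genes lie inside the steps.

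Casp14, a caspase known from the skin, had signals of 2.94 and 2.66 at its detected probe set (log2 difference -0.14), and its other probe set was below the floor on both arrays.

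The adaptors and platforms that activate initiator caspases were read from a list of 13 genes, all detected. Of these, 1 was at least 2-fold higher, 0 lower and 12 between, with a median log2 difference of 0.11. Here and in the lists that follow, the counts stand beside 6.85% higher, 6.43% lower and a median of 0.06 over all detected genes, and no list was tested. Apaf1, the scaffold of the apoptosome that activates caspase-9, had signals of 34.3 and 42.2 (0.30, and 0.68 at its other probe set). Cycs, which encodes cytochrome c, had 45.2 and 32.3 (-0.49, and 0.03 at its other probe set). Pidd1, the scaffold of the PIDDosome that activates caspase-2, was 2.33-fold higher, but from 0.85 to 1.99 times the array median, and the log2 difference was 0.99 when the floor was raised to the array median. For Casp9, the 2 genes of its platform named here had differences on opposite sides of 0 at their brightest probe sets only.

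The list of death receptors and ligands around caspase-8, which also counts TNF receptors, had 9 genes, all detected. Their median was 0.17, with 0 higher, 2 at least 2-fold lower and 7 between. That median is the value of Tnfrsf10b, whose signal was under the floor in CD4 IEL (0.20) and just above it in CD4CD8aa IEL (0.45). Fasl, which encodes Fas ligand, had 132 and 162 (log2 difference 0.29, and -0.09 at its other probe set). Tnfrsf25, which encodes the death receptor DR3, had signals of 19.2 and 1.35, 14.3-fold lower in CD4CD8aa IEL (log2 difference -3.83). Tnf, the ligand of the TNF receptors, had 17.8 and 8.43, 2.11-fold lower.

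Of the 13 caspase inhibitors and their antagonists, all detected, 0 were at least 2-fold higher, 1 lower and 12 between, with a median of -0.25. The median is the value of Cflar. Because the list pools inhibitors with genes that oppose them, the sign of its median says nothing about more or less inhibition. Birc3, an inhibitor of apoptosis protein that ubiquitinates components of TNF receptor signalling, had 74.6 and 61.98 (log2 difference -0.27). Serpinb1a, a serpin of neutrophil serine proteases that has also been described as a limiter of inflammatory caspases, had 62.4 and 6.47, 9.65-fold lower in CD4CD8aa IEL (-3.27, and -2.43 at its other probe set).

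The inflammasome list, which concerns Casp1, had 11 of its 14 genes on the array with a single symbol. All 11 were detected, with 1 at least 2-fold higher, 0 lower, 10 between and a median of 0.07. Pycard, which encodes the adaptor ASC that links sensors to caspase-1, had 90.1 and 60.4 at its brightest probe set (log2 difference -0.58, 1.49-fold lower), and its 4 probe sets ran from -0.58 to 0.39. Naip5, a sensor of bacterial flagellin, had 2.30 and 4.93, 2.14-fold higher. It belongs to a family of similar Naip genes whose probe sets may share signal. Of the 8 matched interferon-induced regulators, 1 was at least 2-fold higher, 0 lower and 7 between, with a median of 0.15. Irf1, an interferon-induced transcription factor, had 83.2 and 105.4 (0.34). Irf2, a factor described as an activator of the Gsdmd promoter, had 6.38 and 13.1 (2.05-fold higher, or 0.97 on the log2 scale when all differences were centred on the median of detected genes).

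Downstream of the inflammatory caspases, the 10 IL-1 and IL-18 ligands and receptors, all detected, had a median of -0.46 on the log2 scale, with 0 at least 2-fold higher, 3 lower (against 6.43% of all detected genes) and 7 between. That median lies between the values of 2 dim genes, Il33 (signals 0.71 and 0.52) and Il1rn (1.04 and 0.76). At their mean signals, below the array median, the same-gene SD is 0.81, larger than either difference. The cytokine substrates of caspase-1 had signals within a few times the array median or below it. Il1b had 2.14 and 2.11 (-0.02), and Il18 had 0.97 and 0.84 (-0.20). The receptors carried the large values. Il1r1, the signalling receptor for IL-1, had 10.96 and 0.54, a log2 difference of -4.34. Its CD4CD8aa signal was near the floor, and its other probe set was not detected on either array. Il18r1, a chain of the IL-18 receptor, had 152.8 and 40.3 (-1.92), and Il1r2, the decoy receptor for IL-1, had 14.9 and 5.97 (-1.32). Il18rap, the other chain of the IL-18 receptor, named after its values were seen, had 18.8 and 11.1 (-0.76, and -1.74 at its other probe set).

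The list of death substrates and effectors had 18 genes, all detected, of which 0 were at least 2-fold higher or lower and 18 between, with a median of 0.15. Gsdmd, the pore-forming substrate of caspase-1 and caspase-4, had 15.97 and 21.9 (log2 difference 0.46). Acin1, a chromatin factor cleaved in apoptosis, had the largest difference (13.88 and 25.99, 0.91), and its other probe set gave -0.08. Sptan1, which encodes the cytoskeletal spectrin that caspases and calpains cut, had 82.4 and 95.1 (0.21).

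**Figure D3:**
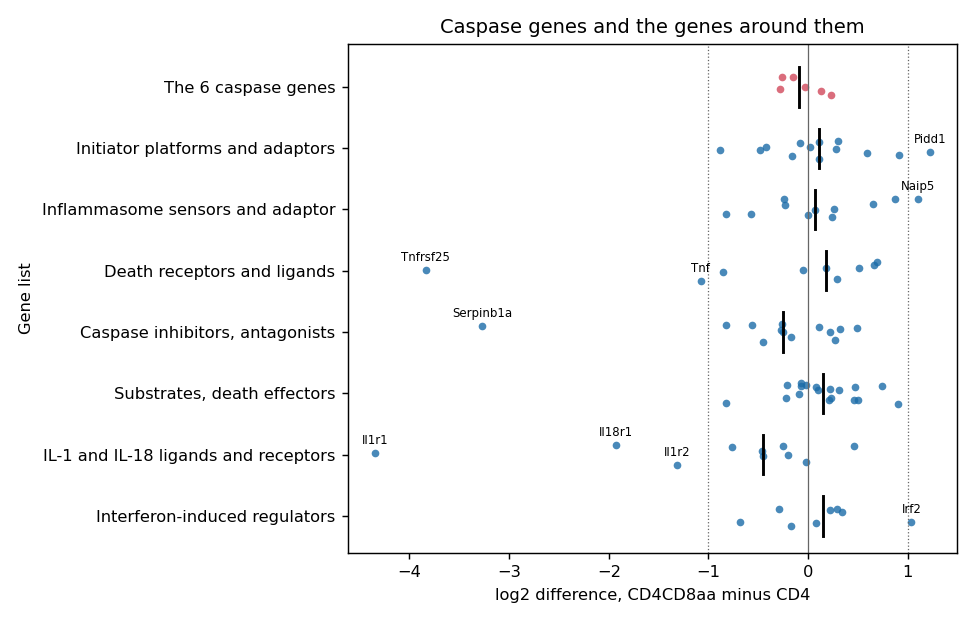
Log2 difference (CD4CD8aa minus CD4) of each detected gene, 1 point per gene, for the 6 caspase genes and 7 lists of genes around them, with the median of each list as a black bar and 2-fold as dotted lines. Genes at least 2-fold apart are named, and points are shifted vertically at random within a row. The caspase genes cluster around 0, and the lowest points are Il1r1, Tnfrsf25 and Serpinb1a.

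Caspases are expressed in many cell types, so the levels of other cells' markers stand beside these values. In a bulk sample, fewer cells of a type and less RNA per cell cannot be told apart. Of 18 detected epithelial markers, 1 was at least 2-fold higher and 5 were at least 2-fold lower in CD4CD8aa IEL, with a median log2 difference of -0.51 and signals that summed to 139.0 (CD4 IEL) and 84.6 (CD4CD8aa IEL). Reg3b alone went from 60.8 to 22.3, and the other 18 genes summed to 78.2 and 62.3. Of the detected epithelial markers, 12 were lower and 6 higher in CD4CD8aa IEL. Cdx1 was below the floor on both arrays. The 15 detected myeloid markers had a median of 0.06, with 2 higher, 1 lower and 12 between, and summed to 53.7 and 56.3. Lyz1, the brightest of them, had 15.1 (CD4 IEL) and 11.3 (CD4CD8aa IEL). Lyz1 is also expressed by Paneth cells of the epithelium, so the sum is not particular to myeloid cells. Itgam was below the floor on both arrays. B and plasma cell markers summed to 4.32 and 2.34, with a median of -0.90 over 4 detected genes (0 higher, 2 lower), and mast cell markers to 20.3 and 12.7, with a median of -0.53 over 5 (1 higher, 0 lower). The 4 B and plasma genes had mean signals below the array median, where the same-gene SD is 0.81. Detected probe sets of Sdc1 ran from -1.85 to 1.34. Every detected mast cell marker except Kit was under the floor on 1 array, so its difference depends on the floor. The mast cell sum was mostly Kit (18.5 and 10.5), and the other 5 genes summed to 1.79 and 2.22. Jchain and Mcpt2 were below the floor on both arrays. T cell markers summed to 1361 and 1824, sums that include Cd8a, with a median of 0.23 over 11 genes and 3 of them at least 2-fold higher, among them Cd8a. The part of epithelial or other host cells in the lower signals of Casp1, Casp4, Casp6 and Casp8 was not tested.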

How the data were processed

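Intensities of 45101 probe sets were measured on 2 Affymetrix arrays, 1 per population. GCOS 1.2 is the tool that the submitters' processing notes name for the deposited raw intensities, and no source used here names the background correction or summarisation. The deposited normalized intensities equal the raw ones divided by the array's median, within rounding to 2 decimals, and the series' value table holds the same ratios to within 4.98e-08. The authors deposited a log2 fold and a linear fold (ratio) of CD4 over CD4CD8aa, per the file headers. The 2 present or absent columns name no sample and were left out.

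Raw signals were divided by the deposited median. The floor is the higher of the arrays' 30th percentiles. Rows naming several symbols, none or a date, and 64 controls, were left out of gene counts. A gene was read at its brightest probe set by mean log2 signal. The same-gene SD came from 20176 probe sets of 7379 genes. Its calculation was tested on data simulated with the same SD at every signal, so its change with signal was not checked. The check used the mean over bands from 2 times the array median up. Deviations were taken from the mean over all of a gene's detected probe sets, so the SD at high signal also holds noise from dimmer sets. Of 147 list genes 138 matched, 7 through RefSeq synonyms. The caspase genes and lists were chosen with earlier results of these data known. Genes outside the 6 were named by rule: 6 fixed ones, the brightest of each list, those at least 2-fold apart (up to 4 each way) or, failing these, the largest difference. Casp12 and Casp14, and Cd4, Cd8a, Il18rap, Il33, Il1rn, Tnfrsf10b and the single markers, were named in addition, after their values were seen. Genes of similar pattern were not ranked, since 2 arrays give no pattern beyond 1 difference. Some genes of the lists are not reported here. Alternatives were other floors, scalings, probe set rules, a 1.5-fold limit and the series' value table. Python 3.11.15, numpy 2.4.6 and pandas 2.3.3 were used.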

Additional observations from a re-analysis of the deposited data

How the results depend on the processing

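With 1 array per population no alternative can stand in for a replicate, and no paired analysis was possible because each population has 1 sample. Across 8 alternatives per gene (3 other floors, raw signals, quantile normalization, centring, the series' value table and the median over probe sets), no caspase gene changed direction, but 4 of the 8 (the floors and the series' value table) returned the same values for all 6 genes, whose brightest probe sets lie above every floor tried, and the median over probe sets could move only the 2 genes with several. Raw signals and centring shift all genes alike. Casp1 ranged from -0.09 to -0.01 on the log2 scale, Casp2 from 0.17 to 0.23, Casp4 from -0.33 to -0.26, Casp6 from -0.35 to -0.11, Casp8 from -0.22 to -0.15 and Casp9 from 0.06 to 0.13. The count of caspase genes and probe sets at least 2-fold apart was 0 under each alternative, and 0 at 1.5-fold. For the background, the number of all genes at least 2-fold apart was 2317 with the floor used, 5381 of 20662 without a floor, 948 of 14234 with the floor 2 times as high and 738 of 12868 with the floor at the array median. Medians of the 7 pathway lists kept their sign under each alternative, but some changed much relative to their own size. The inflammasome median went from 0.07 to 0.004 with centring. That of the initiator platforms went from 0.11 to 0.02 when genes were read as the median over probe sets. Under the same rule the interferon-induced regulators went from 0.15 to 0.04. The death receptors and ligands went from 0.17 to 0.08 under that rule and to 0.29 without a floor. The median for IL-1 and IL-18 ligands and receptors went from -0.46 to -0.76 with the floor at the array median. The same-gene SD describes single probe sets and gives no scale for a list median. Of the other genes named by the rule, Pidd1 (0.99 with the floor at the array median) and Irf2 (0.98 with quantile normalization, 0.97 with centring) no longer reached 2-fold under the alternative given, and Acin1 was 0.41, Serpinb1a -2.85 as the median over probe sets and Il1r1 -3.45 with the floor at the array median. The single array per population limits all 6 genes, and for Casp9 and the dimmer probe set of Casp6 the signal was also within a few times the array median.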
